A study of Mus musculus with 18 samples.

Results

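Cytosolic ribosomal protein genes were examined in CD8+ T cells that had been stimulated once or repeatedly with their peptide and then cultured with ibrutinib, a kinase inhibitor, or with its solvent DMSO. Genes were included if they are protein-coding, their mouse symbol begins with Rpl or Rps and a digit or is Rplp0, Rplp1, Rplp2, Rpsa or Fau, and their mean level over the 18 libraries is at least 10 TPM (transcripts scaled to the same total in every library). Symbols beginning with Rps6k, which name kinases, were left out. Of 93 genes with such a symbol 87 passed, among 45706 genes listed. They comprise 46 proteins of the large subunit, 32 of the small subunit, 4 paralogs (Rpl22l1, Rps27l, Rps27rt and Rpl36al), 3 copies whose symbols carry a ps suffix, and 2 genes that the symbol rule admits although they do not encode ribosomal proteins, Rpl7l1 and Rps19bp1. Rack1 encodes a ribosomal component but has another symbol and is not among the 87.

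The cells were purified from spleens of OT-I mice, whose transgenic T cell receptor recognizes OVA(257-264), a peptide of ovalbumin, and were kept with IL-7 and IL-15. Repeat peptide stimulated cells received the peptide daily for 5 days and kept it from day 5 to day 8, whereas single peptide stimulated cells met it once, for 48 hours, and were washed. Either 1 µM ibrutinib or DMSO was present from day 5 to day 8, when live cells were lysed for RNA-seq. Repeat stimulation was sequenced in 4 DMSO and 5 ibrutinib libraries, and single stimulation in 5 DMSO and 4 ibrutinib libraries. The strain entry of all 18 libraries is OT-1 mice WT, and the animals' age is not given in the sources used here. Their genotype entry differs between libraries and was read here as the name of an experiment, which the labels do not state. The experiments so assigned are lettered A to F. All 4 groups are represented in experiments A to D, whereas E has just a repeat ibrutinib library and F just a single DMSO library. The genotype entry of experiments B to E contains the words btk KO, taken here as an experiment name because the strain entry says wild type. The cells are a culture model of T cell exhaustion that carries a single T cell receptor. Nothing in the labels says which libraries came from separate animals, so p-values measure the spread between these libraries.

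Library totals ranged from 23445922 to 51995372 expected counts. The 7 CD8 T cell markers summed to between 3387 and 5131 TPM in every library, and Cd4 was below 1 TPM in all of them. Foxp3, the other gene of the CD4 T cell list, reached 5.55 TPM in the single DMSO and 8.49 TPM in the single ibrutinib library of experiment B. Summed markers of B cells reached at most 7.1 TPM, of myeloid and dendritic cells 6.23 TPM, of erythroid cells 1.84 TPM and of NK cells 25.59 TPM. In these lists Cd79b reached 7.08 TPM (single DMSO C) and Lyz2 5.92 TPM (single DMSO A). Cd14 reached 2.92 TPM (repeat DMSO C) and Klrb1c 25.17 TPM (repeat ibrutinib B). Ms4a1, Cd79a, Csf1r and Itgam were below 1 TPM throughout. Values below are TPM, which corrects for gene length, or normalised CPM, which is a TMM-scaled share of the counts (CPM) and compares a gene only with itself. Either is a share of the RNA in a library, so fewer cells of a type and less RNA per cell cannot be told apart.

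Each ribosome holds a copy or a few of each ribosomal protein, and a growing cell devotes much of its mRNA to them. Their mRNAs are known as TOP mRNAs, since they begin with a C followed by an unbroken run of pyrimidines at the 5′ end, a terminal oligopyrimidine motif. Through this motif their translation responds together to the mTORC1 kinase pathway, with Larp1 as a binding protein. In T cells ribosome production is known to increase when the receptor is first engaged. The transcript starts of 7 genes that the results turn on show how the motif varies among them. RefSeq sequences on GRCm38.p6 were available for 64 of the 87 genes, and each window runs from 15 bases before the annotated transcript start into the first 15 bases of the transcript. Capitals mark a run of at least 5 C or T that begins with C within 5 bases of the start, and sequences without capitals have no such run.
Rps27, chr3:90213634-90213663, minus strand: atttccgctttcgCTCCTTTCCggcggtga
Rplp2, chr7:141447636-141447665, plus strand: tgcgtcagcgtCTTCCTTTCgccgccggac
Rps6, chr4:86857353-86857382, minus strand: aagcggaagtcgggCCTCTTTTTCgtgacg
Fau, chr19:6057932-6057961, plus strand: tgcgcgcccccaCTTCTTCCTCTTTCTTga
Rps27l, chr9:66946071-66946100, plus strand: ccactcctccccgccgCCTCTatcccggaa
Rpl7l1, chr17:46782642-46782671, minus strand: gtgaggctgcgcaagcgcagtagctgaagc
Rplp0, chr5:115559452-115559481, plus strand: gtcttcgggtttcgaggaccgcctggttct
Rps27, Rplp2, Rps6 and Fau carry runs of 9 to 16 pyrimidines, Rps27l carries the shortest run allowed, and Rpl7l1 has none. Rplp0, a ribosomal protein of the stalk, also has no run in this window, and neither do Rps7, Rps13, Rpl10, Rpl5 and Rpl11. Rpl28 and Rpl22l1 have runs of 10 and 8. Whether a run goes with the changes given below was not tested. A run was found in 31 of the 64 matched genes (48.4%), with a median length of 8 and a range of 5 to 20, against 21.2% of 27025 genes in the same table. With at least 8 pyrimidines within 15 bases the shares were 45.3% and 13.1%. The annotated start may lie some bases from the start used in these cells, so a missing run says only that these letters are not in this window.

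The 87 genes together made up a large share of the RNA in every library. In single peptide stimulated cells with DMSO they held 33.5, 37.1, 39.6, 43.4 and 36.1% of all TPM in experiments A, B, C, D and F. In repeat peptide stimulated cells with DMSO they held 26.4, 31.6, 29.2 and 31.6% in experiments A to D. All 4 repeat libraries were therefore below all 5 single libraries with DMSO. With ibrutinib the shares were 36.7, 36.6, 45.2 and 44.0% in single peptide stimulated cells of experiments A to D. In repeat peptide stimulated cells with ibrutinib they were 29.0, 28.4, 33.1 and 33.6% in A to D and 42.3% in E. The library of experiment E stood above every other repeat library and among the single ones. The group means were 38.0% ± 3.76 (SD, n = 5) for single DMSO, 29.7% ± 2.45 (SD, n = 4) for repeat DMSO, 40.6% ± 4.63 (SD, n = 4) for single ibrutinib and 33.3% ± 5.55 (SD, n = 5) for repeat ibrutinib. These shares weight short genes strongly, since as plain counts the same means were 12.2%, 8.84%, 12.8% and 10.6%. Mitochondrially encoded transcripts held 2.45 to 4.94% of TPM, and leaving them out moved no group mean by more than the SD of its libraries.

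**Figure D1:**
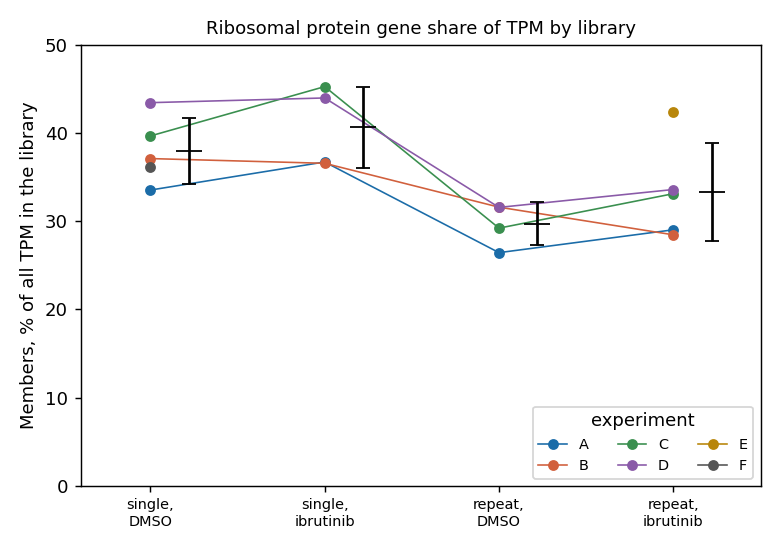
Share of all TPM held by the 87 ribosomal protein genes (vertical axis, %) in each of the 18 libraries, by group (horizontal axis). Points are libraries, lines join libraries of the same experiment, and bars give the group mean and SD. The 4 repeat DMSO libraries lie between 26.4 and 31.6% and the 5 single DMSO libraries between 33.5 and 43.4%, with the repeat ibrutinib library of experiment E at 42.3%.

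Levels spanned a wide range among the 87 genes. By mean TPM over all libraries the 4 highest were Rps27 at 14810, Rps14 at 12520, Rps12 at 12360 and Rplp1 at 11080. Rps27 encodes a zinc-binding protein of the small subunit and Rplp1 a protein of the stalk, the arm of the large subunit that recruits translation factors. The TPM of Rps27 rests on an effective length of 34.5 bases, so it moves strongly with small errors in that length. The 4 lowest were Rps19bp1 at 35.1 TPM, Rpl9-ps6 at 35.7 TPM, Rpl7l1 at 54.2 TPM and Rpl10-ps3 at 70.2 TPM, of which none is a core subunit gene. The 10 TPM minimum fell in an empty stretch, since the nearest genes below it were Rpl36a-ps1 at 2.18 TPM and Rpl39l at 1.33 TPM. Most of the 87 genes had counts with fractions in 16 or more libraries, because the authors' counting divided reads among near-identical copies, and the split between Rps27 and its retrogene copy Rps27rt is uncertain for this reason. Rps27l and Rpl7l1 had whole counts in all libraries.

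The core genes moved together from library to library. The correlation of a gene's log2 CPM with the median of the others over the 18 libraries had a median r of 0.945, and 81 of 87 genes were above 0.8. The 3 lowest were Rps19bp1 at 0.317, Rps27l at 0.374 and Rpl7l1 at 0.434, so the genes that stood apart were both admitted non-ribosomal genes and a paralog. These points share libraries, depth and scaling, and the values describe these libraries only. Within groups the spread was large, with an SD of 0.412 on the log2 scale for the median of all members. It was larger for short genes, with a median SD of 0.591 for the 20 with an effective length up to 156.3 bases and 0.394 for the 20 with at least 590.2 bases. The effective length depends on the fragment sizes of a library, and its median over the genes was 335 bases in single DMSO, 320 in repeat ibrutinib, 319.9 in repeat DMSO and 305.4 in single ibrutinib libraries on average. It was highest in the libraries of experiment D with single DMSO (353 bases) and of experiment E (352 bases), which also held the largest shares of TPM in their groups. The single ibrutinib library of experiment C went the other way, with the lowest of all (286 bases) and the largest share of all (45.2%). The part of fragment size in the levels was not tested, but fits with an offset for effective length are given beside the counts they changed.

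**Figure D2:**
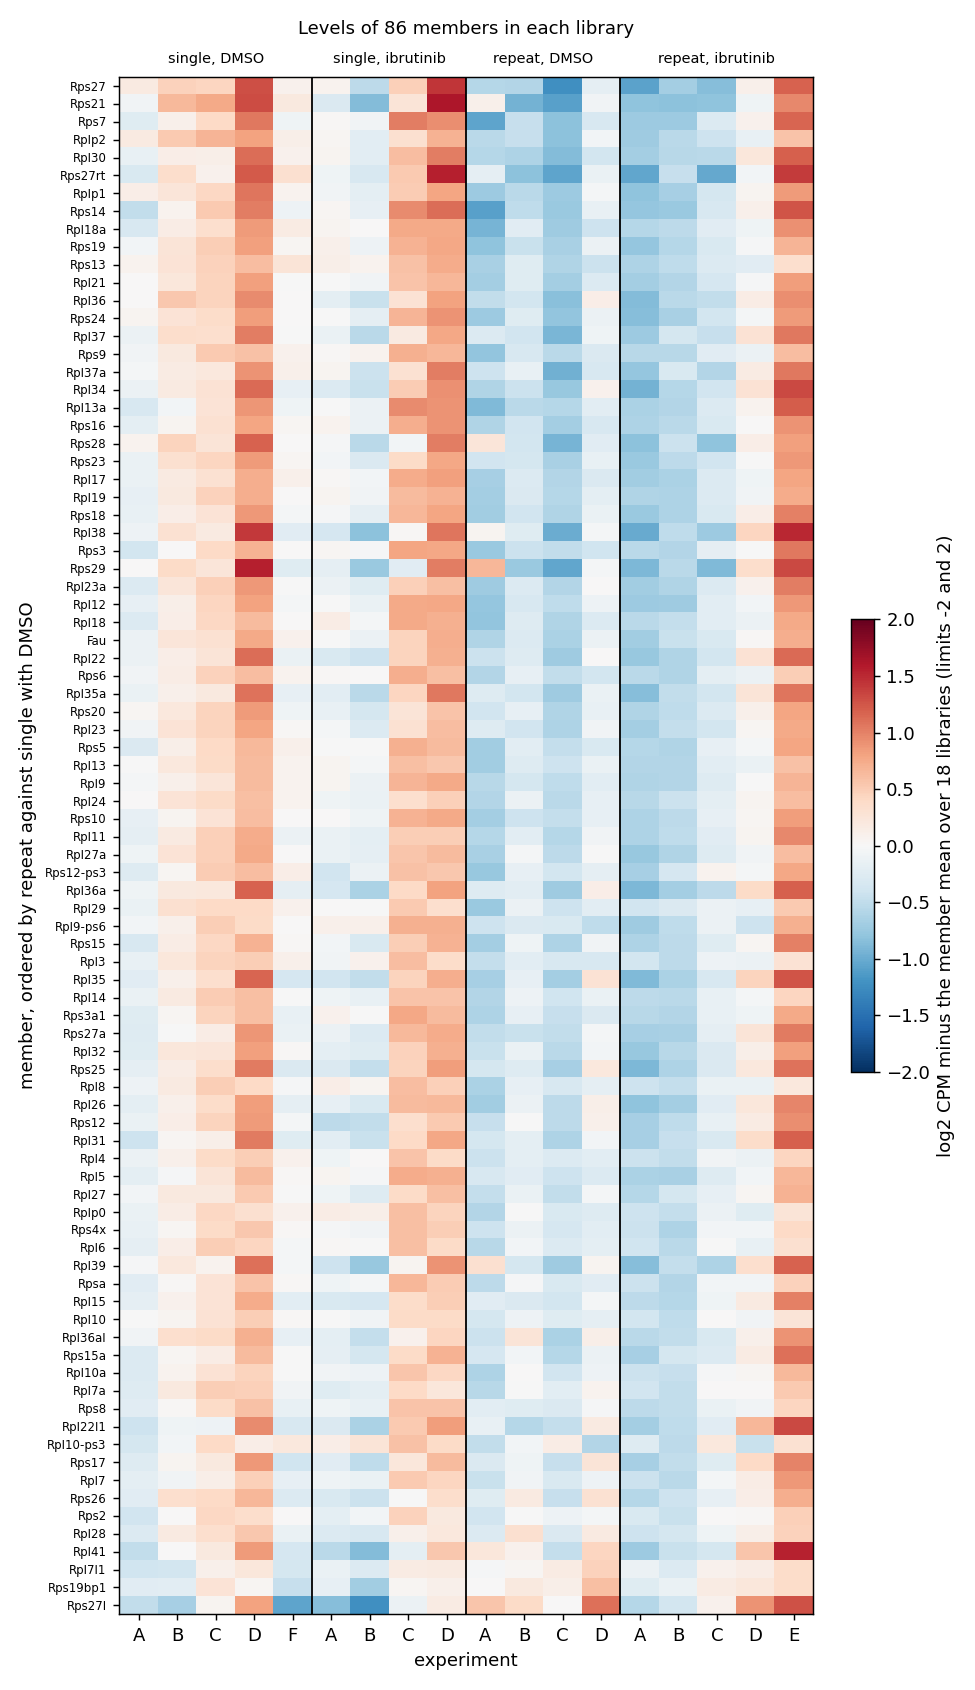
Level of 86 of the 87 genes (rows, ordered by their change in repeat against single peptide stimulated cells with DMSO) in each library (columns, grouped and marked by experiment), as log2 CPM minus the gene's mean over 18 libraries. Nearly all rows share the pattern across columns, with high values in experiment D of both single groups and in experiment E, whereas Rpl7l1, Rps19bp1 and Rps27l at the bottom depart from it.

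The first comparison asked how continued peptide stimulation differs from a single stimulation without the drug. Ribosomal protein genes were lower in repeat peptide stimulated cells. A gene was called changed at an adjusted p under 0.05 in edgeR's quasi-likelihood test with Benjamini-Hochberg adjustment over 12255 genes, if its normalized counts averaged 50 or more and its log2 fold change exceeded 0.2 in size. By this rule 32 of the 87 fell and 0 rose, 19 of 46 core genes of the large subunit and 13 of 32 of the small one, while 24.2% of all tested genes were called lower and 22.8% higher. Their median log2 fold change was -0.61, with a range of -1.16 to 0.68, against a median of -0.002 over all tested genes. The number called depended on single libraries, at 6 without the repeat DMSO library of experiment A, 9 without that of C, 11 and 18 without the single DMSO libraries of D and C, and 54 without the repeat ibrutinib library of E, which enters through the shared spread. The libraries of the same experiment deviated together, so the fit was repeated with the experiment as a block, which compares libraries assigned to the same experiment. In that fit 77 fell and 2 rose, where 27.4% of tested genes were called lower and 26.2% higher, and the median was -0.63. It called 43 of 46 core genes of the large subunit and 30 of 32 of the small subunit lower. The 8 genes not called in either direction were Rpl10-ps3, Rpl22l1, Rpl28, Rpl39, Rpl41, Rps19bp1, Rps2 and Rps29.

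Rplp2, at chr7:141447370-141451585 on the plus strand (GRCm38), encodes a protein of the ribosomal stalk. In single DMSO libraries it measured 925, 1163, 1295, 1422 and 883 CPM in experiments A, B, C, D and F. In repeat DMSO libraries it measured 557, 589.9, 458 and 783 CPM in experiments A to D. Every repeat library was below every single library. The log2 fold change was -0.93 (SE 0.25, edgeR adjusted p = 0.00391) without the block and -1.01 (SE 0.12, edgeR adjusted p = 3e-06) with it, and the call held in all 18 fits that each left out a library. Rplp1, its partner in the stalk, changed by -0.91 on the log2 scale (SE 0.31, edgeR adjusted p = 0.0191). Rplp0, which anchors the stalk to the ribosome, lies at chr5:115559467-115563727 on the plus strand. It fell less, with a log2 fold change of -0.45 (SE 0.17, edgeR adjusted p = 0.0327).

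Rps27, at chr3:90212522-90213651 on the minus strand, had the lowest fitted change of the called genes. It measured 478, 584, 568, 1039 and 452 CPM in single DMSO libraries of experiments A, B, C, D and F, of which D stands well above the others. It measured 284, 282, 182 and 373 CPM in repeat DMSO libraries of A to D. All repeat libraries were below all single libraries, with a log2 fold change of -1.16 (SE 0.44, edgeR adjusted p = 0.0338) without and -1.20 (SE 0.21, edgeR adjusted p = 0.000254) with the block. Without the single DMSO library of experiment D the change was -0.89 and the edgeR adjusted p 0.0936 in the fit without the block, and the call was also lost without the repeat DMSO library of A, B or C (adjusted p of 0.0632, 0.0643 and 0.0999). Rps7, a small subunit protein, changed by -0.96 (SE 0.37, edgeR adjusted p = 0.0367) and Rpl30, of the large subunit, by -0.93 (SE 0.36, edgeR adjusted p = 0.0373) on the log2 scale. Both also missed the threshold without the single DMSO library of D, with edgeR adjusted p-values of 0.112 and 0.122.

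Among genes with known further roles, Rps6, the substrate of the S6 kinases downstream of mTORC1, lies at chr4:86854660-86857412 on the minus strand. Its levels were 2399, 2790, 3468, 3879 and 2641 CPM in single DMSO libraries of experiments A, B, C, D and F. They were 1686, 2249.6, 1803 and 1958 CPM in repeat DMSO libraries of A to D. The groups did not overlap, and the log2 fold change was -0.66 (SE 0.22, edgeR adjusted p = 0.0169). Fau, whose product is made as a fusion with a ubiquitin-like protein, changed by -0.68 (edgeR adjusted p = 0.0319), and Rpl10, which joins the large subunit late in its assembly, by -0.40 (edgeR adjusted p = 0.039). Apart from that of Rplp2, each call named so far was lost without the repeat DMSO library of experiment A in the fit without the block, that of Rps6 narrowly (edgeR adjusted p = 0.0501). Other libraries mattered too. Of 18 fits that each left out a library, 6 lost the call of Rplp0. Those of Rpl10, Rps7 and Rpl30 were each lost in 5, and those of Rplp1 and Fau in 3. Rpl5 and Rpl11, which bind Mdm2 together with a ribosomal RNA, passed, with all libraries, only with the block, and without the repeat ibrutinib library of E also in the fit without it (edgeR adjusted p of 0.043 and 0.0226). Their log2 fold changes in the fit with the block and all libraries were -0.46 (edgeR adjusted p = 0.00667) and -0.65. With all libraries the block also brought in Rpsa, also known as the laminin receptor, at -0.42 (edgeR adjusted p = 0.0161), and Rpl22, which is required for T cell development, at -0.67 (edgeR adjusted p = 0.00153).

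The direction was shared by most genes in each experiment. In experiments A, B, C and D 73, 81, 86 and 84 of the 87 genes were lower in the repeat DMSO library than in the single DMSO library. The median log2 differences were -0.37, -0.39, -0.90 and -0.87, so the size in C and D was over 0.8 and in A and B under 0.4. The difference was lower in 4 of 4 experiments for 72 genes, against 30% of all tested genes, and higher in 4 of 4 for Rpl7l1 alone, against 31.4%. The groups did not overlap for 31 of the 87 genes, all lower in repeat DMSO libraries, against 19.1% of all tested genes that were lower and 22.3% that were higher without overlap. The exceptions to the common direction were few. Rpl41, the smallest ribosomal protein, had a log2 fold change of -0.02 without and -0.04 with the block, and its sign turned when libraries were scaled by their totals only (0.10).

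Rps27l, a paralog of Rps27 known as a target gene of p53, lies at chr9:66946086-66949516 on the plus strand. It measured 34.8, 30.9, 50.7, 86.0 and 23.6 CPM in single DMSO libraries of experiments A, B, C, D and F. It measured 71.7, 64.1, 49.4 and 104.7 CPM in repeat DMSO libraries of A to D, and the groups overlapped. The log2 fold change was 0.68 (SE 0.40, edgeR adjusted p = 0.164) without the block and 0.62 (SE 0.19, edgeR adjusted p = 0.0104) with it. Rpl7l1, at chr17:46773907-46782672 on the minus strand, encodes a nucleolar protein related to Rpl7. Its levels were 84.0, 85.1, 118.2, 129.7 and 86.1 CPM in single DMSO libraries of A, B, C, D and F and 108.5, 113.8, 124.1 and 151.9 CPM in repeat DMSO libraries of A to D. It was higher in the repeat library of every experiment although the groups overlapped, with a log2 fold change of 0.31 (edgeR adjusted p = 0.108) without and 0.27 (SE 0.08, edgeR adjusted p = 0.00542) with the block. With all libraries these were the only 2 of the 87 genes called higher, and only in the fit with the block. Without the single DMSO library of D, both also passed in the fit without the block, Rps27l at 1.05 (edgeR adjusted p = 0.0293) and Rpl7l1 at 0.42 (edgeR adjusted p = 0.03). Rps19bp1, whose product binds the small subunit protein Rps19, had a log2 fold change of 0.27 with the block and was not called (edgeR adjusted p = 0.0919), though it passed without the block when the single DMSO library of C was left out (0.45, edgeR adjusted p = 0.049).

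**Figure D3:**
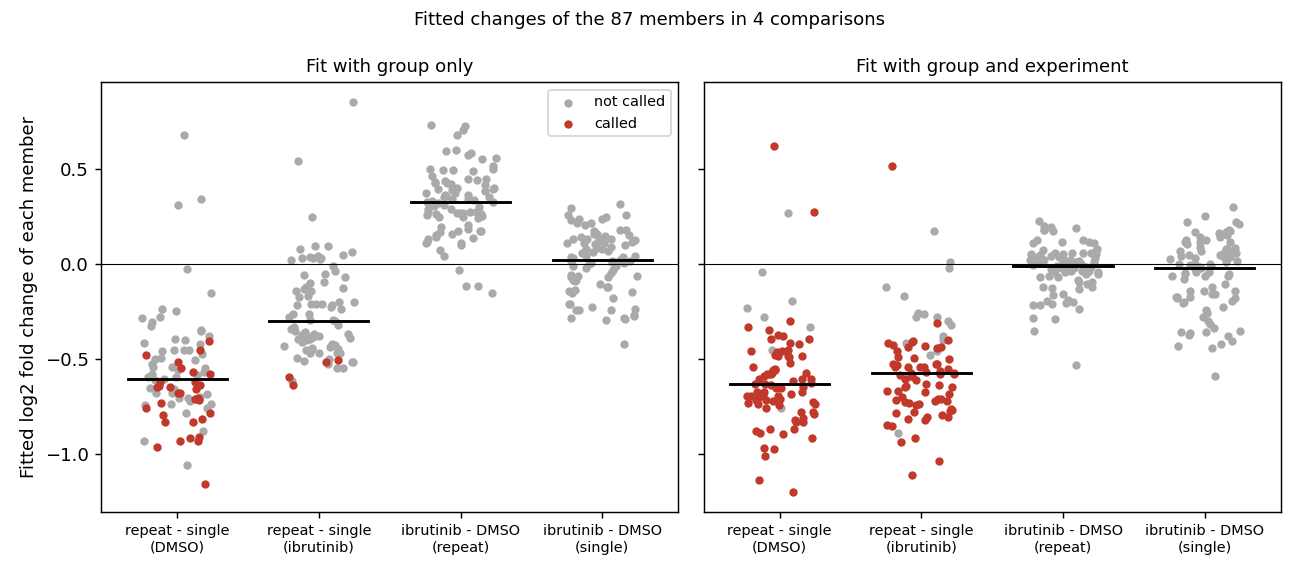
Fitted log2 fold change (vertical axis) of each of the 87 genes in 4 comparisons (horizontal axis), from the fit with group only (left) and with group and experiment (right). Points are genes, red where called, and black lines are medians. Repeat against single with DMSO has medians of -0.61 and -0.63 in the left and right panels, and ibrutinib against DMSO in repeat peptide stimulated cells has medians of 0.33 and -0.01 with no gene called.

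The same comparison with ibrutinib present used other libraries, apart from the shared estimate of spread. Without the block 4 genes fell and 0 rose, where 19.6% of all tested genes were called lower and 18.7% higher, and the median log2 fold change was -0.30. Among them were Rps13, Rplp0 and Rpl8. With the block 68 fell and 1 rose, where 26% and 22.5% of tested genes were called, and the median was -0.57 with a range of -1.11 to 0.51. That fit called 39 of 46 core genes of the large subunit and 25 of 32 of the small subunit lower. The library of experiment E has no partner and takes no part in the blocked fold changes. Without it 46 genes were called lower in the fit without the block, and an offset for effective length gave 13. Leaving out the single ibrutinib library of D or C gave 0 or 1 call, and leaving out the repeat ibrutinib library of A or B gave 2 or 1.

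Rps13, a small subunit protein, shows how that library sits. It measured 931, 899.8, 1288 and 1436 CPM in single ibrutinib libraries of experiments A to D. In repeat ibrutinib libraries it measured 556, 601, 707 and 729 CPM in A to D and 1075 CPM in E. The first 4 repeat libraries were below all single libraries, and only E overlapped them. The log2 fold change was -0.63 (SE 0.18, edgeR adjusted p = 0.00966) and with the block -0.80. The call was lost only without the single ibrutinib library of experiment D (-0.48, edgeR adjusted p = 0.0567). Rplp0 changed by -0.51 (edgeR adjusted p = 0.0204) and Rpl8, of the large subunit, by -0.51 (edgeR adjusted p = 0.0214) on the log2 scale, and each of these calls was lost without the single ibrutinib library of C or D or the repeat ibrutinib library of A or B (adjusted p from 0.059 to 0.1). Rps14 had a log2 fold change of -0.47 without and -0.93 with the block. For Rps27 the values were -0.54 and -1.03, for Rps6 -0.51 and -0.71, and for Rpsa -0.39 and -0.55. Rps27l was again the gene called higher with the block, at 0.51 (SE 0.19, edgeR adjusted p = 0.0321).

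No gene had repeat ibrutinib libraries, E among them, all below the single ones, against 16.4% of all tested genes. Within experiments A, B, C and D 85, 72, 85 and 84 genes were lower in the repeat than in the single library with ibrutinib, with median log2 differences of -0.57, -0.34, -0.75 and -0.64. Those lower in 4 of 4 experiments numbered 71, against 36.1% of all tested genes, and only Rps27l was higher in 4 of 4, against 33.3%.

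**Figure D4:**
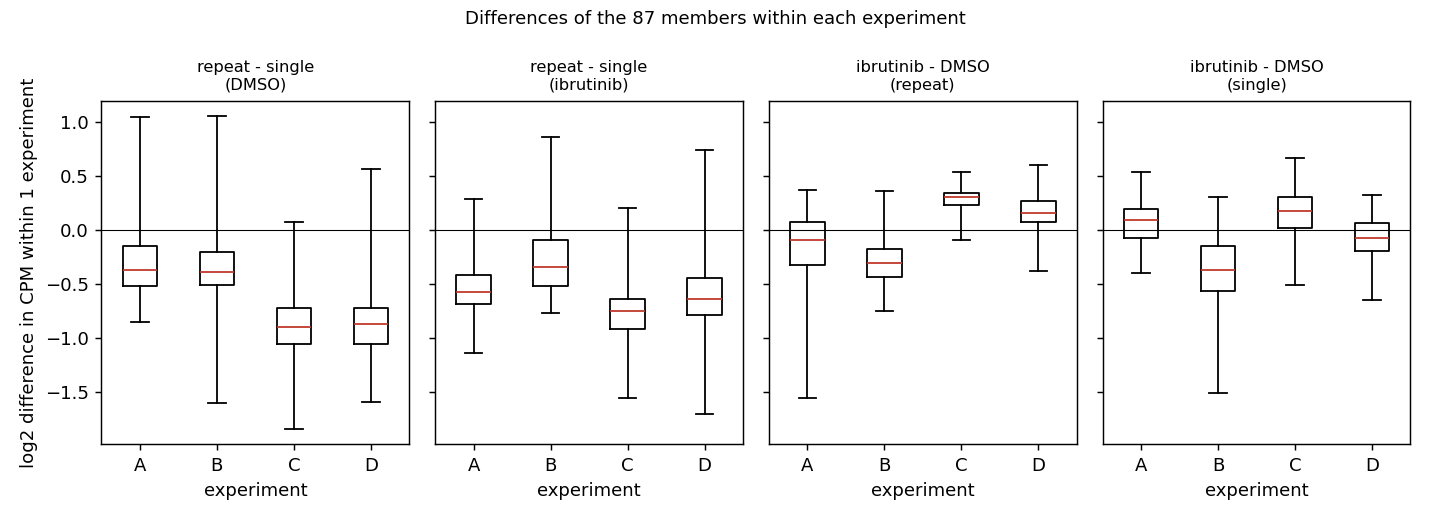
Difference in log2 CPM of the 87 genes within experiments A to D (horizontal axis) for the 4 comparisons (panels). Boxes hold the middle of the genes, red lines are medians and whiskers reach the lowest and highest gene. The medians of repeat minus single lie below 0 in all 4 experiments with DMSO (-0.90 to -0.37) and with ibrutinib (-0.75 to -0.34), whereas those of ibrutinib minus DMSO lie on both sides of 0.

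The next question was whether ibrutinib changed ribosomal protein genes. In repeat peptide stimulated cells 0 of the 87 genes were called in either direction by edgeR without or with the block, against 5.92% and 13.8% of all tested genes. At an unadjusted p under 0.05 the counts were 0 without and 2 with the block, and DESeq2 called 0. The median log2 fold change was 0.33 without the block, 0.02 when the library of experiment E was left out and -0.01 with the block. With the block 76 of 87 genes changed by less than 0.2 and 86 by less than 0.5 on the log2 scale, with standard errors of 0.0758 to 0.354 and a median of 0.132. At the median error the median change between repeat and single stimulation would stand clear of 0, whereas a change of 0.2 would not.

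Within experiments the direction of the drug difference was split. The median log2 difference between ibrutinib and DMSO in repeat peptide stimulated cells was -0.09 in A and -0.31 in B but 0.30 in C and 0.15 in D. Accordingly 52 and 81 genes were lower with ibrutinib in A and B, but 1 and 11 in C and D. Only Rpl7l1 was lower in 4 of 4 experiments, against 19.9% of all tested genes, and 0 were higher in 4 of 4, against 18.6%. The values of Rplp2 with ibrutinib, 497, 562, 608 and 733 CPM in A to D and 1201 CPM in E, lay below the DMSO values of 557, 589.9 and 783 CPM in A, B and D and above that of 458 CPM in C. The groups overlapped, as they did for all 87 genes, while 5.43% of tested genes were lower and 4.64% higher without overlap. Rps27l measured 33.0, 38.1, 52.0 and 91.8 CPM with ibrutinib in A to D and 118.8 CPM in E. It was lower with the drug than with DMSO in A, B and D and slightly above it in C, and with the block its log2 fold change was -0.53 (SE 0.19, edgeR adjusted p = 0.0733).

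In single peptide stimulated cells 0 of the 87 genes were called without or with the block, against 3.04% and 9.09% of all tested genes. At an unadjusted p under 0.05 the counts were 0 and 8, and DESeq2 called 0. The median log2 fold change was 0.02 without and -0.02 with the block, and with the block 63 genes changed by less than 0.2 on the log2 scale. With both the block and an offset for effective length, a setting chosen after the data were seen, Rps27rt (0.67, edgeR adjusted p = 0.0379) and Rps10 (0.43, edgeR adjusted p = 0.0257) were called higher. Within experiments the medians were again split, at 0.09 in A, -0.37 in B, 0.17 in C and -0.08 in D. The genes lower in 4 of 4 experiments numbered 14, against 17.2% of all tested genes, and those higher numbered 2, Rpl10-ps3 and Rpl5, against 19.8%. The groups overlapped for every gene, against 3.42% of tested genes lower and 2.97% higher without overlap. Whether the drug difference depended on the stimulation was tested as an interaction, which called 0 of the 87 genes without and with the block, against 1.26% and 5.54% of tested genes, with 0 and 1 at an unadjusted p under 0.05.

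A paralog can be compared with its partner within a library, where scaling has no part. The log2 ratio of expected counts of Rps27l to Rps27 was -3.78, -4.24, -3.48, -3.59 and -4.26 in single DMSO libraries of experiments A, B, C, D and F. In repeat DMSO libraries of A to D it was -1.99, -2.14, -1.88 and -1.83. All repeat values were above all single values, by a difference in means of 1.91, or 3.76-fold. A fitted Rps27 change of -1.16 contributed, as did a change of 0.68 in Rps27l, whose own levels overlapped between the groups. The uncertain split of counts between Rps27 and Rps27rt also enters this ratio. For the ratio the exact two-sided permutation test gave p = 0.0159, the smallest that these group sizes allow, and an adjusted p of 0.0794 over 20 tests of 5 pairs in 4 comparisons. With ibrutinib it was -4.03, -3.80, -3.71 and -4.37 in single and -2.60, -2.79, -2.17 and -2.31 in repeat libraries of A to D, and -3.01 in E. These groups did not overlap either, and the mean difference of 1.40, or 2.64-fold, had the same p (0.0159) and adjusted p (0.0794) in the exact permutation test. For this ratio E stood with the repeat libraries, although its summed share of TPM was among those of single ones.

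The ratio of Rps27l to Rps27 also differed between ibrutinib and DMSO in repeat peptide stimulated cells. All 5 ibrutinib values were below all 4 DMSO values, with a difference of -0.62, or 1.54-fold lower (exact permutation p = 0.0159, adjusted p = 0.0794), and it was lower in 4 of 4 experiments. In single peptide stimulated cells the difference was -0.11 (exact permutation p = 0.603) and the groups overlapped. No ratio passed 0.05 after adjustment. The smallest possible p of 0.0159 can pass only if many of the 20 tests reach it, so this outcome says little. The permutation test also does not use the pairing by experiment. A ratio of TPM gave differences of 1.90, 1.62, -0.70 and -0.41 in the same order of comparisons. By TPM the ibrutinib and DMSO groups of repeat peptide stimulated cells overlapped. The ratio in repeat ibrutinib D (629.3 TPM of Rps27l to 12390 of Rps27) was above that in repeat DMSO B (530.3 to 11140 TPM). Comparisons that share a group share its libraries, so these differences are not independent.

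Rpl7l1 to Rpl7 behaved likewise with DMSO. Its log2 ratio was -4.38, -4.49, -4.19, -4.43 and -4.38 in single DMSO libraries of A, B, C, D and F and -3.76, -4.07, -3.70 and -3.61 in repeat DMSO libraries of A to D. The groups did not overlap, with a difference of 0.59, or 1.50-fold (exact permutation p = 0.0159, adjusted p = 0.0794), to which a fitted Rpl7 change of -0.28 and a Rpl7l1 change of 0.31 contributed. With ibrutinib the difference between repeat and single was 0.24 (exact permutation p = 0.206, a test that does not use the pairing), the ratio was higher in the repeat library of 4 of 4 experiments, and the difference was 0.38 without the unpaired library of E. For Rpl22l1, the paralog that can take the place of Rpl22 in the ribosome, the ratio differed by 0.34 between repeat and single with DMSO (exact permutation p = 0.0794, adjusted p = 0.198). The ratio of Rpl36al to Rpl36a differed by 0.12 (exact permutation p = 0.556), with overlapping groups.

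**Figure D5:**
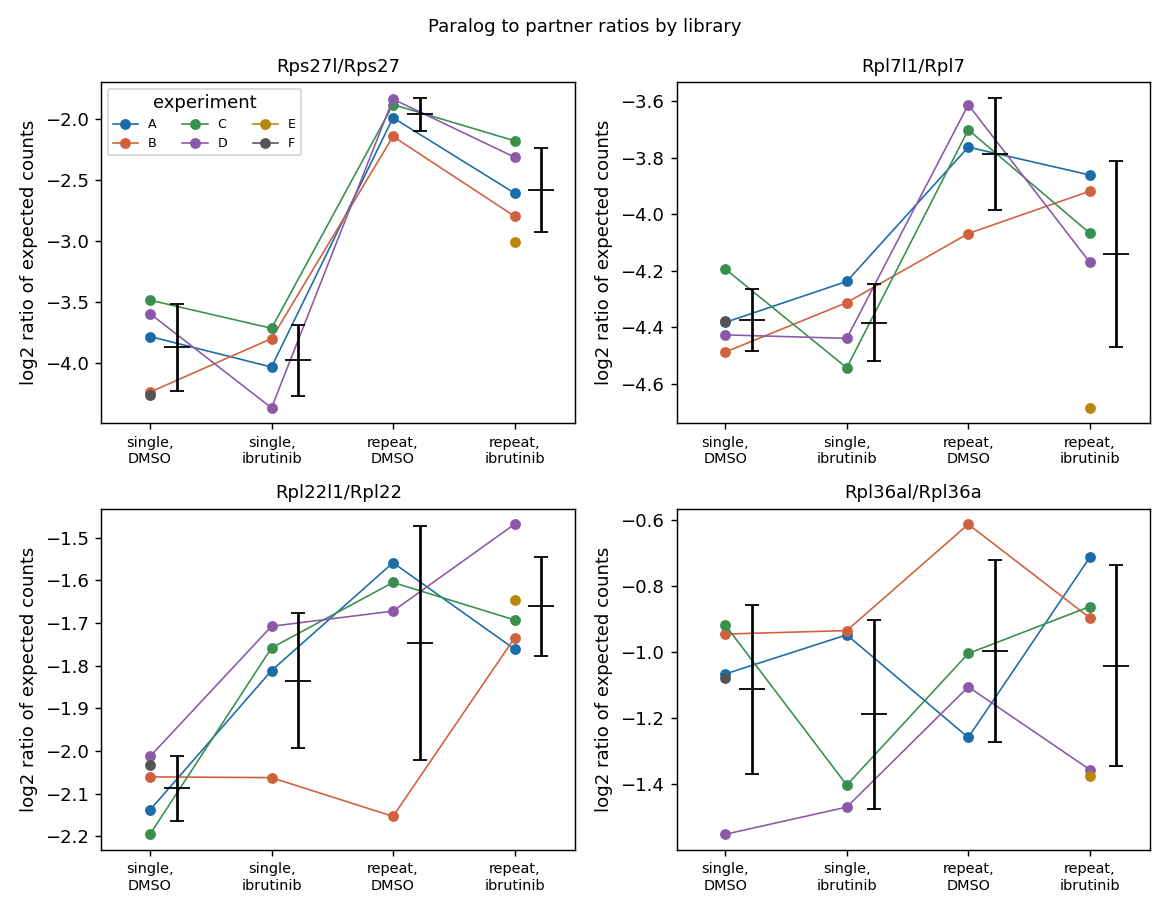
Log2 ratio of the expected counts of a paralog to those of its partner (vertical axes, which differ between panels) in each library by group (horizontal axis) for 4 pairs. Points are libraries, lines join an experiment, and bars give the group mean and SD. For Rps27l/Rps27 all repeat libraries, including that of experiment E at -3.01, lie above all single libraries, whereas for Rpl22l1/Rpl22 and Rpl36al/Rpl36a the groups overlap.

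Other genes of ribosome production and translation were compared by lists, each described by its counts in the fit with the block for repeat against single with DMSO, where 27.4% of tested genes were called lower and 26.2% higher. Of 20 tested genes for elongation factors and other known TOP mRNAs 14 fell and 1 rose, with a median log2 fold change of -0.39. Eef2, the elongation factor that moves the ribosome along the mRNA, changed by -0.31 (edgeR adjusted p = 0.00992) and Eef1a1, which delivers the transfer RNAs, by -0.31 (edgeR adjusted p = 0.0488, and 0.148 without the block). Rack1, a component of the small subunit, fell by 0.42 on the log2 scale (edgeR adjusted p = 0.00379, and 0.0772 without the block). These values are close to that of the stalk gene Rplp0 and smaller than that of Rplp2.

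Of 53 ribosome biogenesis genes 28 fell and 2 rose, with a median of -0.23. Rrp12, which helps export and process the precursors of the subunits, measured an edgeR log2 fold change of -1.97 with the block and -1.92 without it, well below any ribosomal protein gene. Mdn1, which removes assembly factors from the precursor of the large subunit, changed by -1.47 and Fbl, which methylates ribosomal RNA, by -0.81. Of 28 genes for RNA polymerases I and III and their factors 13 fell and 3 rose, with a median of -0.24. Of 20 mTORC1 and TOP mRNA regulators 12 fell and 2 rose, with a median of -0.25. Larp1, which binds the TOP motif, changed by -0.41, the translation inhibitor Pdcd4 by -1.04 and Myc, a transcription factor that drives ribosome production, by -0.56, whereas Eif4ebp1, an inhibitor of cap-dependent initiation, changed by 0.53. Rps6kb1, an S6 kinase gene, had a log2 fold change of -0.10 and was not called.

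Among initiation factor genes 11 of 24 rose and 3 fell, with a median of 0.11, among them the cap-binding protein Eif4e at 0.59. Of 78 mitochondrial ribosomal protein genes 23 rose (29.5%, near the share of all tested genes) and 8 fell (10.3%), with a median of 0.14, and Mrps6 changed by 1.43. The mitochondrial ribosomal genes held 0.629% ± 0.0453 (SD, n = 4) of TPM in repeat DMSO libraries and 0.484% ± 0.0302 (SD, n = 5) in single DMSO libraries, the opposite order to the cytosolic ones. Shares of TPM have a fixed total, so a lower cytosolic share by itself raises the shares of other genes. How much of the difference this makes was not tested. Without the block the lists kept the sign of their medians with fewer calls, at 7 lower and 1 higher for the TOP list, 19 and 1 for biogenesis, 12 and 2 for the polymerases, 9 and 2 for the regulators, 1 and 7 for initiation and 3 and 13 for mitochondrial ribosomal genes, where 24.2% of tested genes were called lower and 22.8% higher. With ibrutinib in repeat peptide stimulated cells Rrp12 was 0.54 higher on the log2 scale without the block (edgeR adjusted p = 0.00313) and 0.57 higher with it, while no ribosomal protein gene was called in either fit. Only with the block, Mdn1 (0.56, edgeR adjusted p = 0.00937), Pdcd4 (0.40, edgeR adjusted p = 0.019) and Rps6ka3 (0.30, edgeR adjusted p = 0.031) were also higher with the drug. Called higher in that fit were 2 of 53 biogenesis genes (3.77%, Rrp12 and Mdn1), 2 of 20 regulators and 2 of 28 polymerase genes, against 8.47% of all tested genes. Called lower were 5 of 24 initiation factor genes and 4 of 78 mitochondrial ribosomal genes, against 5.35% of all tested genes, to which the mitochondrial share of 5.13% is close. Among these were Mrps6 (-0.59, edgeR adjusted p = 0.00134) and Eif3j1 (-0.35, edgeR adjusted p = 0.0063).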

How the data were processed

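RNA-seq of 18 libraries was used, grouped by the labels. The authors trimmed reads with Trim Galore, and RSEM 1.3.1 with STAR aligned them to GRCm38 using Ensembl gene models. The deposited expected counts are the authors' estimated reads per gene. TPM, which the authors scaled to an equal total per library, is also deposited and was used for levels and shares only. Effective length, another estimate that the authors deposited, served in an alternative.

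Expected counts were rounded. Of 45706 genes 45143 matched GENCODE M21 and 27903 are protein-coding or lncRNA genes. In R 4.3.3, 12255 genes passing filterByExpr, all 87 members among them, were normalized by TMM and tested with edgeR 4.0.16 (glmQLFit, robust, and glmQLFTest) in 1 fit of 4 groups, with Benjamini-Hochberg adjustment. DESeq2 1.42.0 was an alternative. Paralog ratios used a pseudocount of 0.5, pairs with a median of at least 10 counts, and scipy 1.17.1. Libraries of the same experiment formed 24 pairs, all with deviations from the group means that correlated above 0.1 (0.177 to 0.633, median 0.419). Of 97 other pairs 16 were above 0.1, with a median of -0.10 and a range of -0.54 to 0.50. The experiments read from the genotype entry were therefore taken to pair the libraries. The members, lists, tests and alternatives were chosen with earlier results of these data known. Named were the called members with the largest changes, up to 6 in each direction, paralog pairs, the extremes of mean TPM and members with known roles. Scripts were tested on simulated data. Some single genes are not reported here.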

Additional observations from a re-analysis of the deposited data

Results flagged for a closer look

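In 132 groups of 4 or 5 libraries, over 33 levels, shares and ratios, 10 had a library far from the others by Dixon's criterion, of which chance flags about 1 in 20. In single DMSO libraries it was that of experiment D 7 times: Rpl22 (791 CPM against 334 to 435 in the others), Rpl22l1 (196 CPM against 76.3 to 95.6), Rpl30 (1439.8 CPM), Rpl36a (743 CPM), Rplp1 (2838 CPM), Rps27 (1039 CPM) and the log2 ratio of Rpl36al to Rpl36a (-1.55). In repeat ibrutinib libraries it was that of experiment E for Rps14 (6259 CPM against 1541 to 2821) and Rps7 (4481 CPM against 1198 to 2105). In repeat DMSO libraries it was that of experiment A for the log2 ratio of Rpl39l to Rpl39 (-13.5 against -8.10 to -7.12), a ratio that rests on few Rpl39l counts. These libraries of D and E also had the longest median effective lengths of their groups. By contrast, the single ibrutinib library of C had the shortest of all (286 bases) and the largest share of TPM (45.2%). The part of effective length in these levels was not tested.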

How the results depend on the processing

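The median change of the 87 members moved by less than the within-group SD of library medians (0.412, log2 scale) in all 74 values under another setting and all 180 leaving out a library. That limit is larger than most of the medians, so it does not show them to be stable. Without the block, leaving out a library gave medians of -0.58 (without E) to -0.07 (without single ibrutinib D) for repeat against single with ibrutinib. For the interaction they were -0.001 (without E) to 0.51 (without single ibrutinib D). The number called also moved. Against 32 called in repeat against single with DMSO and 4 with ibrutinib, the replicate block for experiment gave 79 and 69. An effective length offset gave 13 with ibrutinib, and a fit of only the compared groups 59 and 1. The following were chosen after seeing the data. The block with the offset gave 75 and 74, and 2 for ibrutinib in single peptide stimulated cells; the block with TMM from non-members 79 and 69; the block with DESeq2 size factors 79 and 68; and no libraries of E and F 56 and 46. DESeq2's Wald test, chosen earlier, gave 37 and 4.

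Leaving out each library in turn gave 6 to 54 with DMSO (6 without repeat DMSO A, 9 without C, 11 without single DMSO D, 18 without C, 54 without E) and 0 to 46 with ibrutinib (0 without single ibrutinib D, 1 without C, 2 and 1 without repeat ibrutinib A and B, 46 without E). With the block the ranges were 68 to 81 and 58 to 78, 0 to 3 for each drug comparison (without repeat DMSO A, B or C) and 0 to 1 for the interaction.

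The direction turned for Rpl41 with DMSO (0.10 by library totals, 0.0451 with the offset, 0.055 with offset and block, -0.15 to 0.23 leaving out libraries) and, leaving out libraries, for Rps27l with ibrutinib in repeat (-0.43 to 0.13) and in single cells (-0.55 to 0.082). Paralog ratios with turns were Rpl22l1/Rpl22 (-0.0488 to 0.15), Rpl36al/Rpl36a (-0.13 to 0.0818) and Rpl39l/Rpl39 (-1.42 to 0.90) for the drug in repeat cells, Rpl36al/Rpl36a (-0.19 to 0.0167), Rpl7l1/Rpl7 (-0.0581 to 0.0437) and Rps27l/Rps27 (-0.20 to 0.0229) for the drug in single cells, Rpl36al/Rpl36a (-0.0109 to 0.20) with DMSO and Rpl39l/Rpl39 (-0.93 to 0.45) with ibrutinib between stimulations. A TPM ratio could not be had for Rpl39l/Rpl39, which has TPM of 0 in some libraries. The causes were not tested, apart from the fewer samples in each leave-out.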
